A study of Homo sapiens with 16 samples.

Results

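Compounds T4 and T5 were compared at the same dose in U2OS cells, an established human osteosarcoma line, by RNA sequencing after 6 h of treatment. The comparison used 10 of the 16 libraries of the series, 5 of cells given T4 and 5 of cells given T5, each at 0.5, 2, 5, 10 and 20 µM. The remaining libraries were 5 with CPT at the same doses, used here only as a scale of distance, and 1 with DMSO, whose values are printed as a background level. The series describes T4 and T5 as APA modulators and names neither their structures nor their targets, so no structural difference can be attached to the values below. The chosen unit was the dose pair, 1 T4 and 1 T5 library, and the main fit used all 5 pairs.

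APA is alternative polyadenylation, in which 1 gene can end its mRNA at different places. At each place the pre-mRNA is cleaved and a poly(A) tail is added. Cleavage is carried out by the cleavage and polyadenylation specificity factor, the cleavage stimulation factor and cleavage factors I and II, and the same step is coupled to the end of transcription. Gene-level values such as those used here do not show which site was used. They show how much of each gene's RNA was present.

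Values are FPKM as deposited, and differences are T4 minus T5 on the log2(FPKM + 1) scale, averaged over the 5 dose pairs and given with the standard error of the fit over 10 libraries. Because 1 is added first, differences of weakly expressed genes are understated. A gene was called when limma with dose as a block gave a Benjamini-Hochberg adjusted p of at most 0.05 over the 10600 genes tested, chosen by an average of 1 FPKM or more across the 16 libraries. Each dose had 1 library per compound, and no source says whether these were grown as separate cultures. The p-values thus weigh a difference only against its scatter from pair to pair, which may be technical. Total depth is unknown. Relative to DMSO, the depth inferred from the smallest steps in the values was 0.758 to 0.943 for T4 and 0.639 to 0.997 for T5, and T4 over T5 was 0.956, 0.895, 1.28, 1.05 and 0.908 in order of dose. Bone markers summed to 592 to 864 FPKM with T4 and 618 to 954 FPKM with T5, and 7 of 11 reached 1 FPKM, among them COL1A1 and SPARC, while BGLAP, SP7 and COL1A2 were below 1 FPKM and IBSP was at 0 in all 10 libraries. Epithelial markers summed to 10.0 to 18.3 FPKM with T4 and 11.5 to 20.6 FPKM with T5, mostly CLDN4. Blood markers stayed under 1 FPKM in all 10 libraries, with CD3E and HBB at 0.

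At matched doses 2807 genes were higher with T4, 26.5% of those tested, and 641 were lower, 6.05% (limma, Benjamini-Hochberg). The differences were small: the median of the called genes was 0.25 for those higher with T4 and -0.23 for those lower with T4, and 14 and 51 of them reached 1.5-fold. Of the called genes 2622 were higher at all 5 doses and 582 lower at all 5, beside 3314 (31.3%) and 990 (9.34%) of all genes tested, called or not. The call itself favours genes with one sign over the pairs, so these counts are no separate support. Over all tested genes the differences at any 2 doses had a Pearson correlation of 0.128 to 0.375. The split between directions depended on scaling, and the median difference over all tested genes was 0.06 as deposited. With each library centred on its median the counts were 1683 higher (15.9%) and 1832 lower (17.3%), and with quantile normalization 1339 (12.6%) and 1064 (10.0%). Counts of a gene list are read below against these shares of all genes. Every gene called as deposited and called again under either scaling kept its direction. For median centring this was fixed in advance, because it moves the difference of every gene by the same amount. That amount is smaller than the smallest called difference toward T4, 0.093. Of the 199 called genes named below, 21 were not called with median centring and 40 not with quantile normalization. The sum of FPKM lay between 244746 and 269577 with T4 and between 240588 and 285143 with T5, and the 10 most abundant genes held 4.38% to 7.48% of it with T4 and 4.20% to 10.1% with T5. Leaving out the 2 µM pair gave 1647 higher and 294 lower, leaving out 5 µM 1655 and 298, and leaving out 20 µM 2118 and 349. A fit without the dose block, in which the change over the doses counts as scatter, called 0 genes in either direction, with 158 at an unadjusted p under 0.05.

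For most called genes the direction of the difference went with what both compounds did over the dose range. For each gene a common trend was taken as the mean of the T4 and T5 straight-line changes in log2(FPKM + 1) on log2 dose between 0.5 and 20 µM, a description of the same 10 libraries with no test. Of the genes higher with T4, 2462 (87.7%) had a negative common trend, and of those lower with T4, 455 (71.0%) had a positive one. Over all tested genes 5887 (55.5%) were negative and 4695 (44.3%) positive. Among the 495 genes with a common trend below -2 the median T4 minus T5 was 0.24, with 49.5% called higher with T4 and 0.202% lower. Among the 28 genes with a common trend above 2 it was -0.57, with 0 called higher and 18 lower. In both classes the median gene thus had, with T4, a level on the low-dose side of its level with T5. Among the 4529 genes with a common trend from 0 to 1 the calls were split. There the median was -0.03, with 7.60% called higher with T4 and 8.63% lower.

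**Figure D1:**
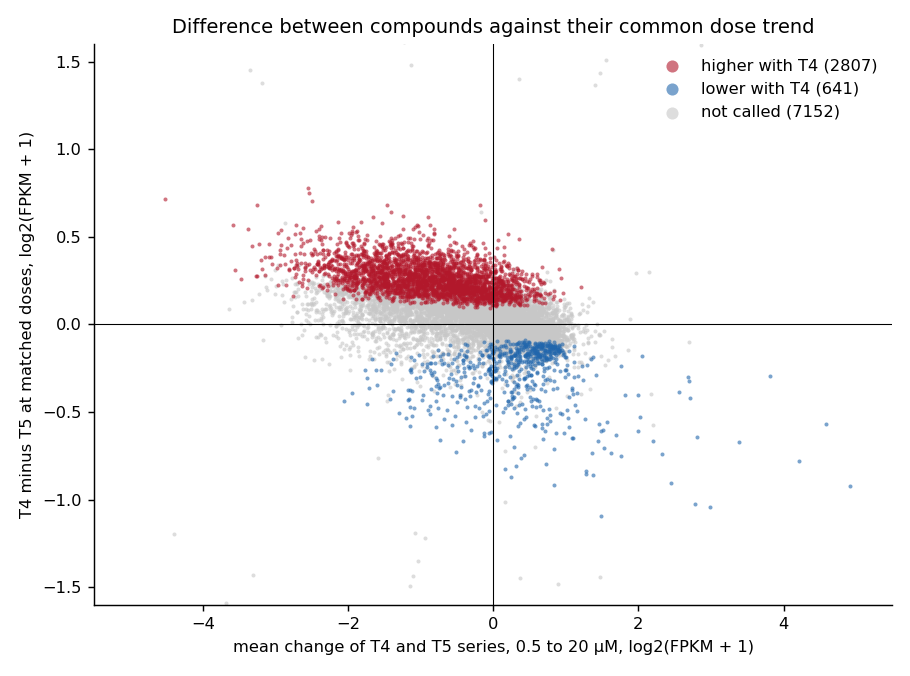
T4 minus T5 at matched doses (vertical axis, log2(FPKM + 1), mean of 5 pairs) against the common dose trend (horizontal axis, mean of the T4 and T5 changes between 0.5 and 20 µM), 1 point per gene, coloured by the limma call. Genes called higher with T4 lie mostly left of 0 and genes called lower with T4 mostly right of it, and 20 of the 10600 genes lie outside the axes.

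Immediate early genes, which cells switch on within minutes of a stimulus without new protein synthesis, were lower with T4. Of 20 tested, 14 were lower and 0 higher, beside 6.05% and 26.5% of all genes, and their median difference was -0.35 against 0.06 over all genes. With median centring 16 were lower and with quantile normalization 14, again with 0 higher. FOS, a subunit of the AP-1 transcription factor, had 3.88, 25.0, 61.7, 113 and 154 FPKM with T4 at 0.5, 2, 5, 10 and 20 µM, against 9.41, 50.4, 122, 205 and 254 FPKM with T5 and 1.13 FPKM in DMSO. EGR1, a zinc finger transcription factor, had 17.0, 74.0, 163, 271 and 332 FPKM with T4 in the same order, against 29.1, 146, 322, 429 and 483 FPKM with T5 and 13.8 FPKM in DMSO. ARC, an activity-regulated gene best known from neurons, had 19.3, 77.3, 144, 205 and 208 FPKM with T4, against 33.3, 121, 245, 343 and 285 FPKM with T5 and 7.20 FPKM in DMSO. For FOS and EGR1 the T4 value lay below the T5 value at each dose and both series increased with every dose step, while ARC with T5 had its highest level at 10 µM. The differences were -0.92 ± 0.05 for FOS, -0.78 ± 0.07 for EGR1 and -0.67 ± 0.05 for ARC, with adjusted p of 0.00304, 0.00422 and 0.00422 (limma, Benjamini-Hochberg).

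The 250 bases upstream of the RefSeq start of the first 2 of these genes are printed with matches in capitals, 2 serum response element cores (CArG boxes) for EGR1 and the TATA box TATAAA for FOS (GRCh38.p14, EGR1 at chr5:138465229-138465478, plus strand, and FOS at chr14:75278578-75278827, plus strand). The CArG box is the known serum response element of early genes and the TATA box a core promoter element. No CArG box match was found in the FOS window, but bases further upstream than 250 were not searched. The missing match thus does not show that FOS lacks the element. Both sequences read 5′ to 3′ toward the start and say nothing of binding, which was not measured.
EGR1: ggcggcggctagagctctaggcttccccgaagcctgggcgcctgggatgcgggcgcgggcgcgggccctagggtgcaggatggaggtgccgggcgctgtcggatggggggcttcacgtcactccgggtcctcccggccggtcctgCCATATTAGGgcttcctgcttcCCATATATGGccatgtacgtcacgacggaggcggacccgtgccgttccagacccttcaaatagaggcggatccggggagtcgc
FOS: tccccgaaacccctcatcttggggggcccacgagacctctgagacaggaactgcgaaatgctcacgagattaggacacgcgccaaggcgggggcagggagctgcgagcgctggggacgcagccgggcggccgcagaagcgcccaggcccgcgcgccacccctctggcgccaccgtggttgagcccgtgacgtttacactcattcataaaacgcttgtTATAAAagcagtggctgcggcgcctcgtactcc

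NR4A1, an orphan nuclear receptor, had 3.83, 7.60, 8.65, 8.80 and 6.67 FPKM with T4 and 4.76, 9.04, 14.8, 18.4 and 20.6 FPKM with T5, against 3.49 in DMSO. Its T4 series levelled off from 2 µM on, whereas its T5 series went on increasing to 20 µM. The NR4A1 difference of -0.73 ± 0.18 was not called without the 5 µM or the 10 µM pair. ATF3, a stress-induced bZIP factor, had 8.28, 19.6, 18.1, 10.6 and 5.32 FPKM with T4 and 14.1, 26.6, 27.0, 21.0 and 9.63 FPKM with T5. Both ATF3 series were highest in the middle of the range, and T4 was lower at each of the 5 doses. Other called members were the AP-1 subunits FOSB (-0.32 ± 0.09), JUN (-0.30 ± 0.07) and JUNB (-0.30 ± 0.04), EGR2 (-0.40 ± 0.07) and IER2 (-0.30 ± 0.04), the antiproliferative gene BTG2 (-0.42 ± 0.04), the phosphatase of MAP kinases DUSP1 (-0.30 ± 0.03), the mRNA decay factor ZFP36 (-0.42 ± 0.08) and KLF6 (-0.24 ± 0.05). The members that were not called were JUND (-0.55 ± 0.26), KLF2 (-0.37 ± 0.13), MYC (-0.24 ± 0.08), FOSL1 (-0.22 ± 0.15), IER5 (-0.17 ± 0.08) and FOSL2 (-0.07 ± 0.13). At 0.5 µM 17 of the 20 members were below T5 with T4, and at 5 µM 19 were, with list medians of -0.23 and -0.44. Of all 10600 genes tested, 3265 were below T5 at 0.5 µM and 4281 at 5 µM, with medians of 0.08 and 0.05.

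**Figure D2:**
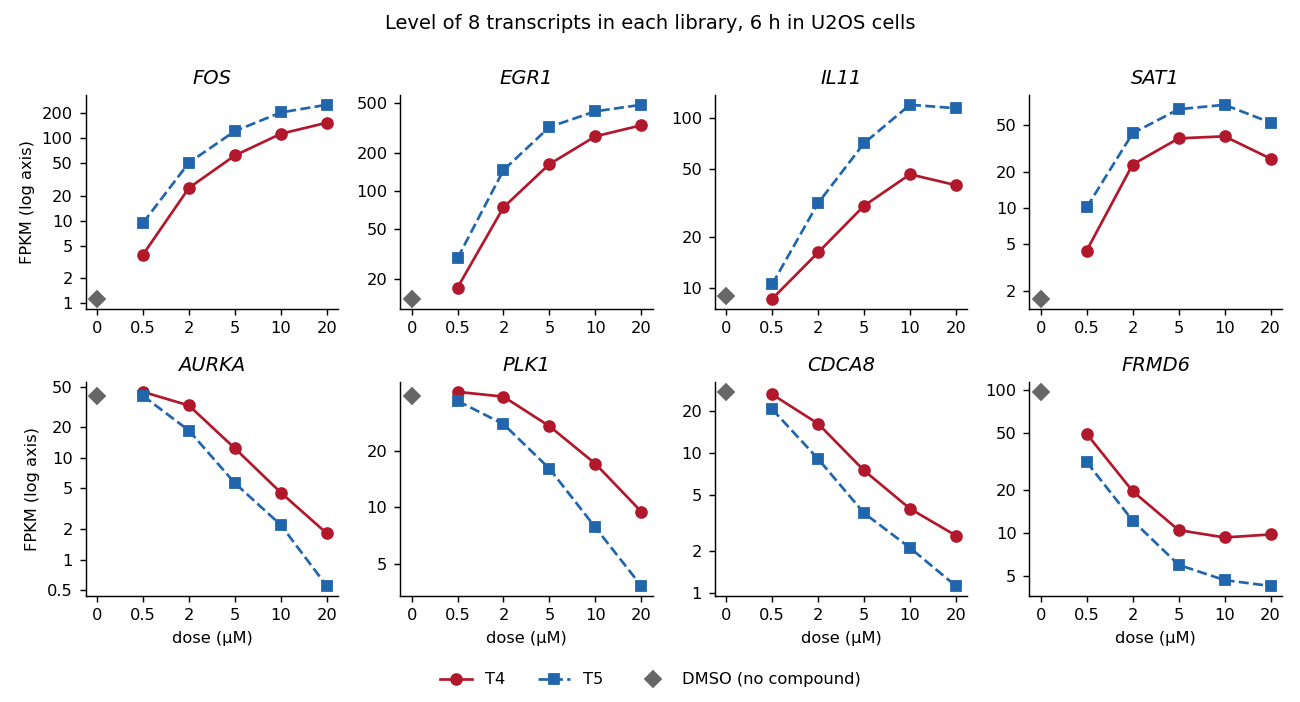
FPKM (log axis) of 8 transcripts against dose in µM, with T4 as circles, T5 as squares and the single DMSO library as a diamond at 0, 1 library per point. FOS, EGR1, IL11 and SAT1 lie lower with T4 than with T5 at every dose, and AURKA, PLK1, CDCA8 and FRMD6 lie higher.

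Among secreted inflammatory factors 5 of 11 tested were lower with T4, 45.5% beside 6.05% of all genes, and 1 was higher. IL11, a cytokine of the interleukin-6 family, had 8.60, 16.1, 30.4, 46.6 and 40.2 FPKM with T4, against 10.5, 31.5, 71.0, 119.6 and 114 FPKM with T5 and 8.93 FPKM in DMSO. CXCL3, a chemokine that attracts neutrophils, had 0.367, 2.11, 4.57, 6.16 and 5.47 FPKM with T4, against 1.13, 4.88, 10.0, 16.1 and 15.3 FPKM with T5 and 0.112 FPKM in DMSO. Both genes were lower with T4 at all 5 doses, with differences of -1.04 ± 0.17 and -1.03 ± 0.10 (adjusted p of 0.00654 and 0.00422, limma with Benjamini-Hochberg), and the T4 series of IL11 ended nearer to DMSO than the T5 series. The list had a median of -0.25 with 5 members not called, and median centring or quantile normalization gave 6 lower and 1 higher. The others lower with T4 were the chemokines CCL20 (-0.64 ± 0.14) and CXCL8 (-0.57 ± 0.07) and the cytokine IL6 (-0.25 ± 0.06), and the one higher was TGFB2 (0.33 ± 0.07), a ligand of the TGF-beta family. CXCL8 had 3.68, 15.7, 44.8, 88.1 and 92.5 FPKM with T4 and 6.56, 23.4, 65.4, 108 and 158 FPKM with T5. Here the gap at 20 µM was the widest in FPKM, and the level with T4 had nearly levelled off between 10 and 20 µM.

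The upstream 250 bases of both leading genes are printed because known inflammatory motifs fall within them: for CXCL3 a pair of overlapping matches to the NF-kB site, and for IL11 the AP-1 site TGAGTCA (GRCh38.p14, CXCL3 at chr4:74038690-74038939, minus strand, and IL11 at chr19:55370464-55370713, minus strand).
CXCL3: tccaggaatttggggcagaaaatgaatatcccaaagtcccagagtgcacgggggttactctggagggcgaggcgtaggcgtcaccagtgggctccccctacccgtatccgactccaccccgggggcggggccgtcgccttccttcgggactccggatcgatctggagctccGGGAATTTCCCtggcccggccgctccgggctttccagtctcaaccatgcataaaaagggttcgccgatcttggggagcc
IL11: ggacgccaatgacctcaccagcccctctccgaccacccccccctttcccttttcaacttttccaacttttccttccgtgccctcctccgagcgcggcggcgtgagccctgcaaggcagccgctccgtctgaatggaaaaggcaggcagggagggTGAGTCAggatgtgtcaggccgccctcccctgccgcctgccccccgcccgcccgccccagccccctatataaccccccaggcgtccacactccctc

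Several enzymes and signalling proteins joined the genes lower with T4. SAT1, which acetylates polyamines and so starts their breakdown, had 4.40, 23.2, 38.3, 39.9 and 25.9 FPKM with T4, against 10.1, 42.3, 67.3, 73.3 and 52.0 FPKM with T5 and 1.73 FPKM in DMSO. On the log2(FPKM + 1) scale the SAT1 gap was of similar size at each dose, with a mean of -0.90 ± 0.04 with an adjusted p of 0.00152 (limma, Benjamini-Hochberg). ODC1, which makes the first polyamine, was also lower (-0.28 ± 0.05), and AZIN1, the inhibitor of the protein that holds ODC1 in check, was higher (0.48 ± 0.08). BCL2A1, an anti-apoptotic member of the BCL2 family, had 11.5, 15.4, 18.9, 14.6 and 7.69 FPKM with T4 and 13.8, 28.3, 32.2, 33.4 and 22.1 FPKM with T5. With T4 at 20 µM it was below the DMSO level of 12.5 FPKM, and with T5 above it. NPPC, the C-type natriuretic peptide precursor, had 0.0991, 0.785, 1.89, 1.18 and 0.557 FPKM with T4 and 0.515, 1.67, 3.31, 8.41 and 4.20 FPKM with T5, and was listed at 0 in DMSO. Its difference was -1.09 ± 0.26 (adjusted p = 0.0206, limma with Benjamini-Hochberg), the value rested on low levels, and it was not called without the 20 µM pair. The remaining genes with the largest differences in this direction were the Wnt receptor FZD8 (-0.92 ± 0.15), the G-protein signalling inhibitor RGS16 (-0.86 ± 0.06), the lipase inhibitor G0S2 (-0.84 ± 0.18), the small GTPases RASL11A (-0.83 ± 0.13) and GEM (-0.81 ± 0.17), and ZNF296 (-0.80 ± 0.11). MMP3, a secreted matrix protease, had 6.44, 9.87, 10.4, 8.83 and 6.59 FPKM with T4 and 7.74, 15.6, 22.2, 20.6 and 11.5 FPKM with T5, a difference of -0.74 ± 0.12.

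Genes of the G2 phase and mitosis showed the opposite difference. Of 34 tested 28 were higher with T4 and 0 lower, against 26.5% and 6.05% of all genes, with a median of 0.40. With median centring 23 were higher and with quantile normalization 26, and 0 were lower in both. AURKA, a kinase that builds the spindle poles, had 44.3, 32.6, 12.4, 4.54 and 1.81 FPKM with T4 at 0.5, 2, 5, 10 and 20 µM, against 40.6, 18.5, 5.63, 2.18 and 0.549 FPKM with T5 and 40.5 FPKM in DMSO. PLK1, a kinase that drives entry into mitosis, had 41.3, 38.9, 27.1, 17.1 and 9.47 FPKM with T4, against 37.0, 27.8, 16.1, 7.80 and 3.80 FPKM with T5 and 39.4 FPKM in DMSO. CDCA8, the borealin subunit of the chromosomal passenger complex, had 26.3, 16.3, 7.54, 4.02 and 2.59 FPKM with T4, against 20.6, 9.12, 3.74, 2.12 and 1.13 FPKM with T5 and 27.4 FPKM in DMSO. In all 3 genes the T4 value was above the T5 value at each dose, and on the log2(FPKM + 1) scale the gap was smaller at 0.5 µM than at the other doses. For PLK1 and CDCA8 the T5 level at 5 µM was already below the T4 level at 10 µM. The differences were 0.72 ± 0.12 (adjusted p = 0.00745), 0.70 ± 0.14 (0.0113) and 0.68 ± 0.08 (0.00422) by limma with Benjamini-Hochberg adjustment. In RNA from a whole culture, fewer cells in G2 or mitosis and less RNA per cell cannot be told apart.

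The promoters of PLK1 and CDCA8 hold matches to the cell cycle genes homology region, TTTGAA or TTTAAA, an element through which many mitotic genes are kept silent outside G2: 3 matches for PLK1 and 1 for CDCA8, shown in capitals (250 bases upstream, GRCh38.p14, PLK1 at chr16:23678639-23678888, plus strand, and CDCA8 at chr1:37692266-37692515, plus strand). Such matches also occurred in genes lower with T4. The EGR1 window printed above holds 1 on the other strand, in lower case there, and among the 12 largest differences in each direction it was found in 2 of 8 windows of genes higher with T4 and in 4 of 11 of genes lower with T4.
PLK1: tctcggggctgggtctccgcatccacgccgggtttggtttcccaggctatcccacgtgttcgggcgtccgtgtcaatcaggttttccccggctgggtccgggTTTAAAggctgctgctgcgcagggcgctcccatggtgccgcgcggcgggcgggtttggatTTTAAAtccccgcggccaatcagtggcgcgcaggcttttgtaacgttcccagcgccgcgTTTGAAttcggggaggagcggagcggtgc
CDCA8: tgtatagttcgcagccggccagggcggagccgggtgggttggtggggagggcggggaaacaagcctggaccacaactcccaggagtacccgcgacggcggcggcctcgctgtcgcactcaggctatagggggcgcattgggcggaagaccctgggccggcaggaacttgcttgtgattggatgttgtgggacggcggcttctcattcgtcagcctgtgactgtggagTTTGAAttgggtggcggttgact

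The other called members covered the mitotic cyclins CCNA2 (0.48 ± 0.07), CCNB1 (0.24 ± 0.04) and CCNB2 (0.39 ± 0.09), the spindle checkpoint proteins TTK (0.55 ± 0.11), BUB1 (0.42 ± 0.05) and BUB1B (0.39 ± 0.05), and the kinetochore proteins CENPA (0.50 ± 0.10), CENPE (0.47 ± 0.09) and CENPF (0.59 ± 0.11). They also covered the motor proteins KIF11 (0.52 ± 0.07), KIF23 (0.52 ± 0.12), KIF2C (0.55 ± 0.06) and KIF20A (0.30 ± 0.05), the spindle assembly factor TPX2 (0.41 ± 0.08), the passenger proteins INCENP (0.45 ± 0.07), AURKB (0.21 ± 0.06) and BIRC5 (0.15 ± 0.04), and the activator of the anaphase-promoting complex CDC20 (0.20 ± 0.05). The remaining ones, NEK2, FAM83D, CKAP2, DLGAP5, PRC1, CDC25C and HMMR, lay between 0.19 for HMMR and 0.57 for FAM83D. Not called were KIF18A (0.30 ± 0.10), MAD2L1 (0.12 ± 0.04), UBE2C (0.11 ± 0.06), CDK1 (0.0015 ± 0.05), CDC25B (-0.02 ± 0.05) and TOP2A (-0.04 ± 0.07). For CDK1, the kinase partner of the mitotic cyclins, the 95% interval of the difference ran from -0.11 to 0.11, and for TOP2A, the topoisomerase that untangles chromosomes, from -0.20 to 0.11. At 0.5 µM 29 of the 34 members were above T5 with T4, with a median of 0.14, and at 2 µM all 34 were, with a median of 0.48. Of all 10600 genes tested, 7289 were above T5 at 0.5 µM, with a median of 0.08, and 6736 at 2 µM, with 0.07.

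In earlier cell cycle phases, of 31 G1/S and replication genes tested 4 were higher with T4 and 4 lower, each 12.9%, beside 26.5% and 6.05% of all genes. Their median was -0.004, and median centring gave 3 and 7 and quantile normalization 2 and 3. Cyclin E, which starts S phase, was among the lower ones: CCNE1 had 43.4, 46.4, 36.2, 22.6 and 13.5 FPKM with T4 and 49.2, 57.3, 55.2, 42.0 and 20.7 FPKM with T5, a difference of -0.50 ± 0.10. The T4 value was lower at each dose although both series declined from 2 µM on. Also lower were the licensing factor CDT1 (-0.29 ± 0.09), the replication clamp PCNA (-0.18 ± 0.04) and the helicase subunit MCM2 (-0.11 ± 0.03). The origin factors GINS1 (0.50 ± 0.09), ORC6 (0.33 ± 0.09) and MCM10 (0.24 ± 0.05) and the transcription factor E2F3 (0.30 ± 0.08) were higher.

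The 12 largest differences toward T4 also held genes outside the mitotic list. FRMD6, a regulator of the Hippo pathway, had 49.2, 19.5, 10.4, 9.26 and 9.72 FPKM with T4, against 31.2, 12.2, 5.95, 4.65 and 4.23 FPKM with T5 and 97.0 FPKM in DMSO. Its difference of 0.78 ± 0.06 (adjusted p = 0.00422, limma with Benjamini-Hochberg) widened on the log2(FPKM + 1) scale with each dose step from 2 µM on. ATXN7L3B, a paralog of a deubiquitinase cofactor, had 16.3, 10.2, 5.56, 3.55 and 3.39 FPKM with T4 and 13.4, 6.34, 2.40, 1.29 and 1.30 FPKM with T5. At 5 and 10 µM its T5 level was below its T4 level at the next higher dose. The rest were SCHIP1 (0.68 ± 0.14), the mitochondrial iron importer SLC25A37 (0.68 ± 0.19), FAM13B (0.64 ± 0.12), the adiponectin receptor ADIPOR2 (0.62 ± 0.09), CMTM3 (0.62 ± 0.07), MANBAL (0.61 ± 0.09) and the galactosyltransferase B4GALT5 (0.60 ± 0.08). SLC25A37 had 3.72, 3.01, 3.86, 4.94 and 4.76 FPKM with T4 and 2.96, 3.00, 2.04, 1.33 and 1.65 FPKM with T5. Its groups almost met at 2 µM, and it was not called under quantile normalization or without the 5, 10 or 20 µM pair.

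**Figure D3:**
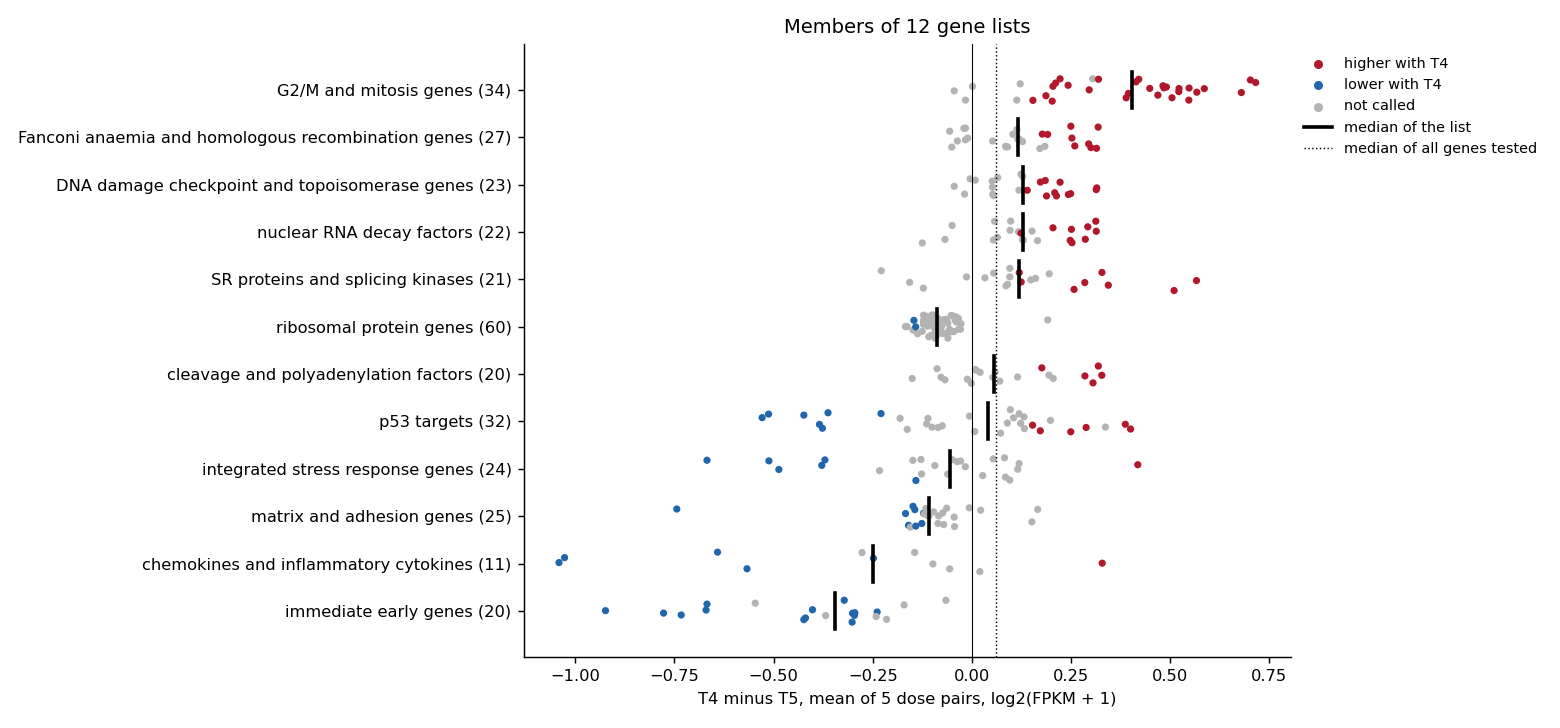
T4 minus T5 (horizontal axis, log2(FPKM + 1), mean of 5 dose pairs) of the tested members of 12 gene lists, 1 point per gene, with the number tested in parentheses, the list median as a black bar and the median of all genes tested, 0.06, as a dotted line. The G2/M list has its median at 0.40 and the immediate early list at -0.35, and the other lists lie between.

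The cleavage and polyadenylation machinery, which carries out the step named in the compounds' label, showed few calls. Of 20 factors tested 5 were higher with T4 and 0 lower, a share of higher calls near that of all genes, and their median of 0.06 equalled that of all genes to 2 decimals. Median centring gave 3 higher and 2 lower and quantile normalization 2 and 1. WDR33, which reads the AAUAAA signal, had 9.40, 3.87, 2.12, 1.97 and 2.23 FPKM with T4, against 6.12, 2.71, 1.52, 1.56 and 1.87 FPKM with T5 and 12.8 FPKM in DMSO. CSTF2T, a paralog of the 64-kDa cleavage stimulation subunit, had 6.77, 4.34, 2.82, 1.70 and 1.27 FPKM with T4, against 5.70, 3.60, 2.13, 1.18 and 0.522 FPKM with T5 and 9.87 FPKM in DMSO. Both were above T5 at every dose, by 0.33 ± 0.06 and 0.32 ± 0.06, and both were below the DMSO level in all 10 libraries. CSTF2T was not called under quantile normalization. The other called factors were CPSF4 (0.31 ± 0.06), CPSF7 (0.28 ± 0.07), a large subunit of cleavage factor I, and CPSF2 (0.18 ± 0.05). For the rest a 95% interval bounds the difference. NUDT21, the small subunit of cleavage factor I, had 0.01 with an interval from -0.08 to 0.10, and PAPOLA, the main poly(A) polymerase, had -0.01 with -0.08 to 0.05. The 2 subunits of cleavage factor II, CLP1 and PCF11, had 0.07 (-0.05 to 0.19) and -0.0016 (-0.12 to 0.12). In the specificity factor, CPSF1 had -0.07 (-0.17 to 0.04), CPSF3, the endonuclease, 0.01 (-0.13 to 0.15) and FIP1L1 0.05 (-0.13 to 0.23). In the stimulation factor, CSTF1 had 0.19 (0.02 to 0.37), CSTF2 0.06 (-0.01 to 0.13) and CSTF3 -0.09 (-0.22 to 0.04). PABPN1, the nuclear poly(A) binding protein, had the lowest value of the list, -0.15 (-0.29 to -0.02), and the scaffold SYMPK had -0.08 (-0.21 to 0.06). PAPOLG, a second poly(A) polymerase, had 0.21 (0.02 to 0.39), CPSF6 0.12 (0.02 to 0.21) and RBBP6 0.02 (-0.16 to 0.20). The intervals of PABPN1, PAPOLG, CSTF1 and CPSF6 leave out 0 without adjustment for the number of genes, and none of these genes was called.

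**Figure D4:**
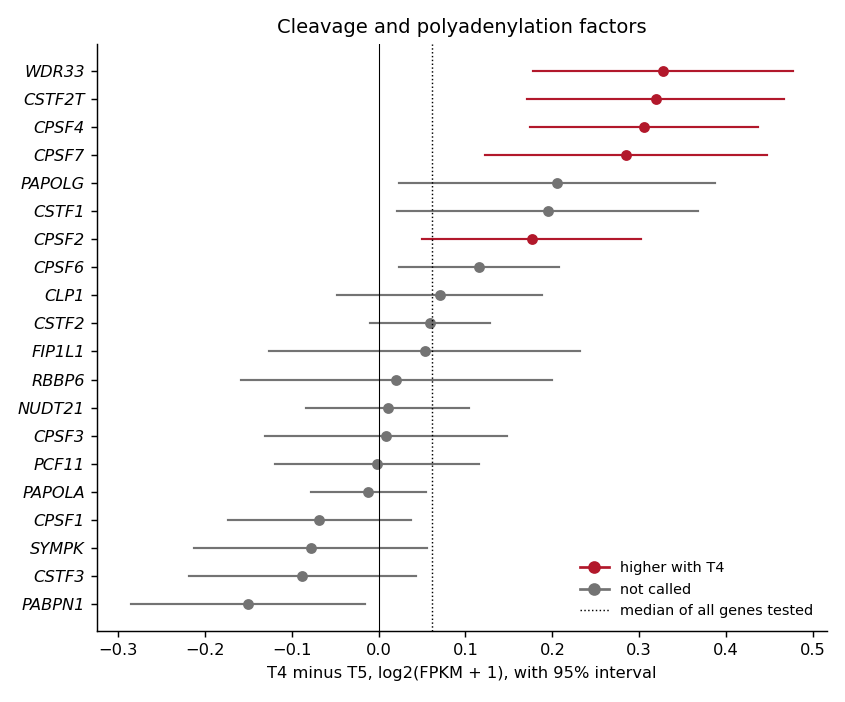
T4 minus T5 of 20 cleavage and polyadenylation factors (horizontal axis, log2(FPKM + 1)), with the mean of 5 dose pairs as a point and its 95% interval as a line, ordered by the difference. Only WDR33, CSTF2T, CPSF4, CPSF7 and CPSF2 were called, and the dotted line marks the median of all genes tested.

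In 4 lists of other steps of mRNA metabolism 31.0% to 40.9% of the members were higher with T4, beside 26.5% of all genes. SR proteins, which bind exons and guide splicing, and their kinases had 8 of 21 higher and 0 lower with a median of 0.12, and 5 higher under either scaling, 23.8% beside 15.9% of all genes with median centring and 12.6% with quantile normalization, with 1 lower under median centring. SRSF4 had 16.7, 8.18, 4.24, 2.99 and 2.26 FPKM with T4, against 12.4, 5.73, 2.51, 1.58 and 0.895 FPKM with T5 and 17.3 FPKM in DMSO. It was above T5 at each dose, by 0.57 ± 0.06 (adjusted p = 0.00422, limma with Benjamini-Hochberg), and SRSF3 (0.51 ± 0.13), SRPK2 (0.34 ± 0.04) and TRA2A (0.33 ± 0.07) followed. RNA decay factors had 9 of 22 higher and 0 lower with a median of 0.13, with 4 higher under median centring (18.2%) and 3 under quantile normalization (13.6%), shares near those of all genes. They were led by the exosome subunit EXOSC2 (0.31 ± 0.04), the decapping enzyme DCP2 (0.31 ± 0.08) and the adaptor proteins ZCCHC7 (0.29 ± 0.06) and ZFC3H1 (0.29 ± 0.06). Elongation regulators had 9 of 29 higher, among them the Mediator kinase CDK8 (0.44 ± 0.05), SUPT6H (0.35 ± 0.07) and AFF4 (0.36 ± 0.08), a scaffold of the super elongation complex, and 6 under median centring (20.7%) and 5 under quantile normalization (17.2%). The 1 lower member was HEXIM1, the inhibitor of the elongation kinase P-TEFb, with 24.1, 47.4, 38.5, 18.1 and 6.93 FPKM with T4 and 38.7, 61.0, 51.5, 31.7 and 7.23 FPKM with T5. HEXIM1 was highest at 2 µM with both compounds and lower with T4 in each pair (-0.45 ± 0.10). In the Integrator complex 5 of 14 were higher, with INTS2 (0.34 ± 0.06) and INTS9 (0.27 ± 0.06) first, and 1, INTS6 (-0.44 ± 0.11), was lower, but the scalings gave 3 and 3 or 1 and 1.

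Deadenylases and AU-rich element binders held calls in both directions, with a list median of 0.02. Of the members 36.4% were higher and 27.3% lower, beside 26.5% and 6.05% of all genes. The subunits of deadenylase complexes CNOT2 (0.46 ± 0.04), CNOT6 (0.37 ± 0.04), CNOT1 (0.32 ± 0.06) and PAN3 (0.29 ± 0.04) were among 8 of 22 that were higher with T4, as were the AU-rich element binders TIA1 (0.30 ± 0.04) and TIAL1 (0.22 ± 0.04). Lower were 6: the AU-rich element binders ZFP36L2 (-0.57 ± 0.07), ZFP36L1 (-0.56 ± 0.08) and ZFP36, and the adaptors TOB1 (-0.54 ± 0.09), BTG2 and BTG1 (-0.38 ± 0.10), which recruit the deadenylase. Under median centring 7 and 7 were called, under quantile normalization 6 and 7. ZFP36L1 had 53.6, 97.3, 142, 150.1 and 118 FPKM with T4, against 63.4, 138, 214, 238 and 207 FPKM with T5 and 45.9 FPKM in DMSO, and every T4 value was below its pair. CNOT2 had 12.6, 6.94, 3.96, 3.10 and 2.68 FPKM with T4, against 9.65, 4.58, 2.55, 1.88 and 1.66 FPKM with T5 and 13.6 FPKM in DMSO, and every T4 value was above its pair. Ribosomal protein genes, with 0 higher and 2 lower of 60 as deposited and a median of -0.09, had 31 lower under median centring and 1 lower and 2 higher under quantile normalization, so no direction holds for them.

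Targets of p53 were found on both sides. Of 32 tested 6 were higher with T4 (18.8%) and 7 lower (21.9%), beside 26.5% and 6.05% of all genes, with a median of 0.04. Median centring gave 3 and 12, and quantile normalization 2 and 8. CDKN1A, the p21 inhibitor of cyclin-dependent kinases, had 32.0, 56.0, 49.7, 38.5 and 25.5 FPKM with T4, against 41.8, 78.2, 87.0, 62.6 and 31.9 FPKM with T5 and 31.6 FPKM in DMSO. T4 was lower at each dose (-0.53 ± 0.07), and CDKN1A peaked at 2 µM with T4 and at 5 µM with T5. Also lower were the secreted factor GDF15 (-0.51 ± 0.12), the apoptosis inducer PMAIP1 (-0.38 ± 0.05), the stress proteins GADD45A (-0.38 ± 0.06) and GADD45B (-0.23 ± 0.04), PLK3 (-0.36 ± 0.09) and BTG2. Higher were the death receptor TNFRSF10B (0.40 ± 0.05), the repair protein XPC (0.39 ± 0.06), MDM2 (0.29 ± 0.08), the ligase that degrades p53, SESN1 (0.25 ± 0.05), RRM2B (0.17 ± 0.04) and CCNG1 (0.15 ± 0.05). The 7 lower members each had at least 1 treated level above DMSO. With 10 treated libraries against 1 of DMSO this is easily met, and its share over all genes is not given here. Of the 6 higher members only TNFRSF10B is set against DMSO here, and it was below its 11.2 FPKM in DMSO in all 10 libraries.

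Among 23 checkpoint and topoisomerase genes 11 were higher with T4 (47.8%) and 0 lower with a median of 0.13, beside 26.5% and 6.05% of all genes. With median centring 5 were higher (21.7%) and with quantile normalization 3 (13.0%), the second near the 12.6% of all genes. As deposited, RAD17 (0.31 ± 0.05), TP53BP1 (0.31 ± 0.05), CLSPN (0.25 ± 0.04) and TDP2 (0.24 ± 0.06), the phosphodiesterase of topoisomerase II lesions, were at the top. Of 27 Fanconi anaemia and homologous recombination genes 9 were higher (33.3%) and 0 lower as deposited, near the share of all genes, 7 and 2 with median centring and 5 and 0 with quantile normalization. BRCA1 had 4.37, 2.36, 2.86, 3.47 and 4.65 FPKM with T4, against 3.25, 2.23, 2.25, 2.29 and 3.31 FPKM with T5 and 9.82 FPKM in DMSO. It was lowest at 2 µM in both series and higher with T4 in every pair (0.29 ± 0.06), and it was not called with quantile normalization. The repair genes FANCL (0.32 ± 0.06), EXO1 (0.31 ± 0.07) and BARD1 (0.30 ± 0.04) showed similar gaps.

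Signalling genes differed in both directions, and their shares stand beside 26.5% higher and 6.05% lower of all genes. Of 11 feedback inhibitors and ligands of the MAP kinase pathway 2 were higher (18.2%) and 3 lower (27.3%), with a median of -0.18. HBEGF, a ligand of the EGF receptor, was lower with T4 (-0.54 ± 0.04), as was the phosphatase DUSP2 (-0.61 ± 0.08), while SPRED2, an inhibitor of RAS signalling, was higher (0.42 ± 0.04). Of 18 TGF-beta genes 3 were higher and 3 lower, each 16.7%. The receptor TGFBR2 had 20.3, 12.1, 7.36, 6.02 and 6.68 FPKM with T4, against 15.6, 8.04, 4.47, 3.61 and 3.44 FPKM with T5 and 20.3 FPKM in DMSO. TGFBR2 was above T5 in each pair (0.58 ± 0.06) and TGFBR1 too (0.34 ± 0.05), while the pathway's antagonist BAMBI (-0.43 ± 0.11) and its target ID4 (-0.40 ± 0.09) were lower. In the Hippo pathway, whose kinases hold YAP out of the nucleus, 6 of 16 genes were higher (37.5%) and 3 lower (18.8%), with a list median of 0.11. Median centring gave 4 and 4, and quantile normalization 3 and 2. The higher members included the kinases LATS1 (0.36 ± 0.08) and LATS2 (0.29 ± 0.05) and the YAP partner TEAD3 (0.34 ± 0.05). The YAP targets ANKRD1 (-0.59 ± 0.12), CTGF (-0.21 ± 0.04) and CYR61 (-0.20 ± 0.04) were lower. A link between these differences was not tested. ANKRD1 had 72.0, 92.2, 104, 126 and 101 FPKM with T4 and 77.4, 118, 176, 225 and 187 FPKM with T5. Of NF-kB genes 6 of 18 were higher (33.3%, beside 26.5% of all genes), including the subunits NFKB1 (0.36 ± 0.10), RELB (0.27 ± 0.06) and RELA (0.21 ± 0.05), and 1, SOD2 (-0.13 ± 0.03), was lower, with 3 and 2 under median centring and 2 and 1 under quantile normalization. NFKB1 was not called under either scaling, and RELB and RELA were not with quantile normalization. Death receptors and adaptors had 5 of 12 higher (41.7%) and 0 lower, among them TRAF2 (0.35 ± 0.08), CASP8 (0.29 ± 0.04) and RIPK1 (0.24 ± 0.05). Under either scaling 4 were higher (33.3%), beside 15.9% of all genes with median centring and 12.6% with quantile normalization.

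Stress response lists held calls in both directions, and their shares stand beside 26.5% higher and 6.05% lower of all genes. In the integrated stress response 6 of 24 were lower, beside ATF3 the growth factor VEGFA (-0.51 ± 0.09), the mTOR inhibitor DDIT4 (-0.49 ± 0.07), CHAC1 (-0.38 ± 0.12), DDIT3 (-0.37 ± 0.12) and ASNS (-0.14 ± 0.04), and 1, the amino acid transporter SLC7A1 (0.42 ± 0.04), was higher. As deposited 25.0% were lower and 4.17% higher, and median centring gave 9 lower and quantile normalization 6. Among unfolded protein response genes the luminal chaperones and cofactors MANF (-0.25 ± 0.04), CRELD2 (-0.22 ± 0.04), HSPA5 (-0.16 ± 0.04) and PDIA4 (-0.14 ± 0.03) were lower, and the quality control genes DNAJB9 (0.22 ± 0.06), SYVN1 (0.18 ± 0.04) and EDEM1 (0.16 ± 0.05) were higher, 6 and 4 of 19 in all, 9 and 0 with median centring and 3 and 0 with quantile normalization. NRF2 itself (NFE2L2) had 11.3, 4.90, 2.66, 1.89 and 2.08 FPKM with T4 and 7.23, 2.88, 1.48, 1.46 and 2.10 FPKM with T5, which is higher with T4 at all doses but the highest, a difference not called with quantile normalization. Its target HMOX1, which breaks down heme, was lower with T4 (-0.44 ± 0.11), and GCLC (0.38 ± 0.06), which starts glutathione synthesis, was higher. Of 25 cholesterol genes 6 were higher (24.0%) and 0 lower as deposited, a share near that of all genes, with 0 and 3 under median centring and 0 and 1 under quantile normalization. Among 25 matrix genes 0 were higher and 8 lower, 17 lower with median centring and 4 with quantile normalization, and apart from MMP3 the largest was COL5A1 (-0.17 ± 0.04). Of 13 clock genes 4 were higher (30.8%) and 2 lower (15.4%). The repressor NR1D1 (-0.64 ± 0.07) and PER1 (-0.31 ± 0.08) were lower, and PER3 (0.34 ± 0.06) and NR1D2 (0.22 ± 0.05) higher.

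Smaller lists gave further single genes, and their shares stand beside 26.5% higher and 6.05% lower of all genes. Of 17 BCL2 family genes the pro-apoptotic BOK (0.47 ± 0.05) and the anti-apoptotic BCL2L1 (0.32 ± 0.04) were higher, and BCL2A1 and PMAIP1 were lower. Of 22 hypoxia genes 2 were higher (9.09%) and 5 lower (22.7%), among these the glucose transporter SLC2A3 (-0.47 ± 0.12) and the vasodilator peptide ADM (-0.39 ± 0.11), beside VEGFA. With median centring 10 were lower (45.5%, beside 17.3% of all genes) and 1 higher. Quantile normalization gave 7 lower (31.8%, beside 10.0% of all genes) and 2 higher. The receptor partner ARNT (0.36 ± 0.05) was higher, as one of 2 called among 4 genes of the aryl hydrocarbon receptor list. Of 7 metallothionein and zinc genes the zinc exporter SLC30A1 (-0.41 ± 0.07) and MT1X (-0.33 ± 0.06) were lower, and the zinc importer SLC39A10 (0.32 ± 0.07) and MTF1 (0.16 ± 0.05) were higher. Of 12 interferon genes 4 were higher (33.3%) and 2 lower (16.7%), led by IFI6 (-0.37 ± 0.10), SOCS1 (-0.32 ± 0.09) and IFI44 (0.27 ± 0.04). The MYC network had 3 of 16 higher (18.8%) and 2 lower (12.5%), with the nucleolar protein NOP56 (-0.41 ± 0.04) first. Among 19 heat shock genes only CHORDC1 (0.18 ± 0.03) was higher, and CRYAB (-0.22 ± 0.04) and HSP90AB1 (-0.18 ± 0.05) were lower, but median centring gave 0 higher and 5 lower and quantile normalization 3 and 1. Among 11 histone genes HIST1H2AC (0.28 ± 0.06) alone was called.

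Noncoding transcripts differed in both directions. Of 14 long noncoding RNAs 1 was higher with T4 (7.14%) and 5 were lower (35.7%), beside 26.5% and 6.05% of all genes. LINC00273 had 3.25, 13.3, 16.7, 14.2 and 22.4 FPKM with T4, against 6.32, 16.5, 24.9, 39.8 and 27.0 FPKM with T5 and 0.274 FPKM in DMSO, and was lower in each pair (-0.66 ± 0.16). TUG1 had 13.0, 9.81, 11.7, 12.9 and 16.2 FPKM with T4 and 10.3, 7.88, 7.84, 8.84 and 10.3 FPKM with T5, higher in each pair (0.44 ± 0.06) and below the DMSO level of 26.5 FPKM throughout. The snoRNA host genes SNHG3 (-0.35 ± 0.05), SNHG8 (-0.31 ± 0.04) and SNHG12 (-0.20 ± 0.06) and H19 (-0.31 ± 0.08) were lower. The largest differences of all belonged to small RNAs. Of 44 genes with a mean difference of at least 2-fold, 37 were small RNAs by name and 41 were listed at 0 in at least 1 of the 10 libraries, and 6 were called. Of these 6, IL11, CXCL3 and NPPC were never at 0 with either compound. MIR663A was listed at 0 in all 5 T4 libraries and at 3205, 0, 0, 3340.0 and 7479 FPKM with T5, which is a mix of very large values and zeros. Such entries come from short features, and an exact 0 in this kind of file can be a failed estimate.

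Gene length separated the directions. Using the span of each gene in the RefSeq annotation of GRCh38.p14, found for at least 98.4% of each set, the median was 51.9 kb for genes higher with T4, 6.95 kb for those lower and 29.1 kb for all tested. The median difference was -0.10 for genes under 5 kb, of which 4.64% were called higher and 21.6% lower. It was 0.15 for genes of 100 to 200 kb, of which 45.2% were called higher and 1.22% lower. In the 656 genes over 200 kb it was 0.11, with 33.8% called higher and 1.07% lower. The gap between short and long genes was present on both sides of the common trend: genes with a negative one had medians of -0.04 under 5 kb and 0.21 at 100 to 200 kb, and genes with a positive one -0.12 and 0.02. Genes lower with T4 were also more abundant, with a median FPKM of 15.4, against 4.80 for genes higher with T4. Within genes of 1 to 5 FPKM the median difference was -0.04 under 10 kb and 0.16 over 50 kb, and within genes above 20 FPKM -0.09 and 0.01. Other gene properties that go with length were not tested.

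**Figure D5:**
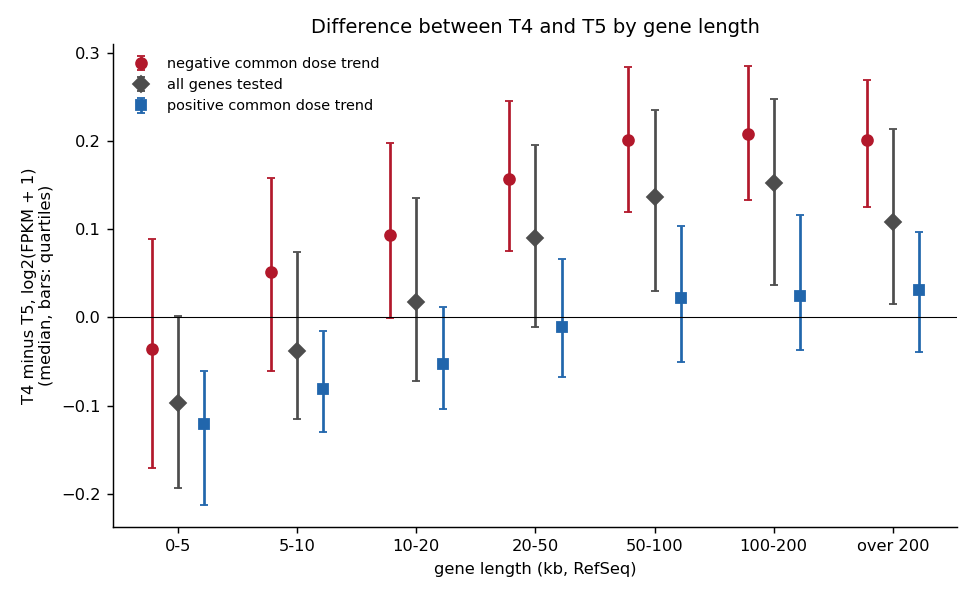
Median T4 minus T5 (vertical axis, log2(FPKM + 1), bars from the lower to the upper quartile of genes) by gene length in kb, for genes with a negative common dose trend, all genes tested and genes with a positive common dose trend. In each class the medians are lowest under 5 kb, and over all genes they reach 0.15 at 100 to 200 kb and are at 0.11 over 200 kb.

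Of the promoter motifs searched, TATAAA showed the widest gap between the called sets. Upstream windows of 250 bases were found for 8547 of the 10600 genes and searched on both strands, and matches of different motifs could overlap. The TATA box TATAAA was present in 3.95% of genes higher with T4, in 14.1% of those lower and in 4.94% of all tested, beside 10.7% of all 35116 RefSeq promoters. The cell cycle genes homology region was in 15.6%, 12.3% and 13.4% of these sets, and 21.9% of all promoters. AP-1 sites, TGACTCA or TGAGTCA, were in 1.81%, 3.27% and 2.49% in the same order, and 4.20% of all promoters, and CArG boxes in 0.799%, 1.43% and 0.971%, and 1.16% of all promoters. The CCAAT box was in 35.8%, 38.4% and 35.1%, against 32.0% of all promoters, the NF-kB site in 5.63%, 6.13% and 5.78%, against 5.21%, and the cAMP response element TGACGTCA in 3.66%, 2.66% and 3.18%, against 1.65%. These are shares of letters in windows, with no test, and no binding was measured.

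Whether the difference grew or shrank with dose was tested by the interaction of compound and log2 dose. It called 0 of 10600 genes (0.0%) by limma, with 1752 at an unadjusted p under 0.05 and a lowest adjusted p of 0.0838, and median centring called 2, PLK1 and NME1-NME2. In simulated data this test recovered 14.9% of genes given a change of 0.6 over the range. The 0 calls thus do not show that changes of that size were absent. The genes with the lowest unadjusted p, none of them called, are given with the change of T4 minus T5 over the range from 0.5 to 20 µM. The positive ones were NME1-NME2 (1.20), CRKL (1.15), HIST1H3H (1.06), PLK1 (1.02) and SRSF3 (0.94), and the negative ones IL11 (-1.22), EXOSC4 (-0.90), SPATA2L (-0.89), ABHD8 (-0.89) and RBM42 (-0.67). CRKL, an adaptor protein, had 41.4, 41.7, 24.4, 12.7 and 8.07 FPKM with T4 and 44.9, 32.6, 14.9, 7.77 and 3.12 FPKM with T5, so T4 was lower at 0.5 µM and higher at the other doses. NME1-NME2 is a read-through entry that shares its exons with NME1 and NME2, and its values are uncertain.

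Single pairs lay at a similar distance at each dose. The median T4 minus T5 over all tested genes was 0.08, 0.07, 0.05, 0.07 and 0.01 in order of dose. Genes past 2-fold were few and have no replicate check: 11 higher and 18 lower with T4 at 0.5 µM (0.104% and 0.17% of genes), and 10 and 14 at 2 µM (0.0943% and 0.132%). At 5 µM there were 7 and 10 (0.066% and 0.0943%), at 10 µM 12 and 56 (0.113% and 0.528%), and at 20 µM 15 and 34 (0.142% and 0.321%). The median absolute difference between T4 and T5 was 0.126, 0.138, 0.151, 0.130 and 0.146, while between T4 and CPT at the same dose it was 0.340, 0.458, 0.391, 0.329 and 0.398. Between T5 and CPT it was 0.359, 0.424, 0.330, 0.293 and 0.327, smaller than for T4 at each dose but 0.5 µM. At 0.5, 2, 10 and 20 µM the T5 library nearest to a T4 library was that of the same dose, but T4 at 5 µM was nearer to T5 at 2 µM (0.124) than to T5 at 5 µM (0.151). Taken from the T5 side, T5 at 2 µM was nearer to T4 at 5 µM than to T4 at 2 µM (0.138), and T5 at 20 µM was nearer to T4 at 10 µM (0.142) than to T4 at 20 µM (0.146). T5 at 20 µM was thus nearest to T4 at a lower dose, and T5 at 2 µM to T4 at a higher dose. The 5 µM T5 library was also the shallowest, and its part in that order was not tested.

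Exceptions to the common trend were a minority of the calls. Of the genes higher with T4, 345 (12.3%) had a positive common trend, and of those lower, 186 (29.0%) had a negative one. Exceptions with a common trend above 1 or below -1 were fewer. Only CERK, the ceramide kinase, was called higher with T4 while its common trend exceeded 1, with 6.14, 4.62, 6.43, 10.7 and 13.8 FPKM with T4 and 4.42, 4.36, 6.19, 8.29 and 11.7 FPKM with T5. CERK was 1 of 156 genes with a trend from 1 to 2 (0.641%), and of the 28 genes above 2, 0 were called higher. In the same classes 46 (29.5%) and 18 (64.3%) genes were called lower with T4. Against a falling trend, 34 genes were called lower with T4 with a common trend below -1. These were 33 of 1920 genes with a trend from -2 to -1 (1.72%) and 1 of 495 below -2 (0.202%). The largest differences among them were SHISA2 (-0.58 ± 0.09), the G-protein regulator RGS2 (-0.53 ± 0.11), the transcription factor IRF8 (-0.52 ± 0.12), CCNE1 and the protease ADAMTS1 (-0.48 ± 0.07). RGS2 had 6.61, 13.4, 11.1, 5.38 and 2.34 FPKM with T4, against 9.93, 18.7, 17.2, 11.6 and 2.65 FPKM with T5 and 2.75 FPKM in DMSO. Like HEXIM1, HMOX1 and CCNE1, it was highest at 2 µM in both series, so its straight-line trend is negative although its level at 2 µM was above that in DMSO.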

How the data were processed

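The authors deposited FPKM values per gene (fragments scaled by transcript length and library size) for 16 libraries. Per the submitters' processing notes the tools were GSNAP and Cufflinks on hg19 (GRCh37) with no version named. Strand and annotation were not given in the sources used. The labels' protocols name RNeasy extraction and Illumina libraries. After 220 repeated identical lines were dropped, 25270 genes remained, and 10600 with a mean of at least 1 FPKM were tested. Of these 65 had a 0 in at least 1 T4 or T5 library.

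T4 minus T5 was fitted on log2(FPKM + 1) with limma 3.58.1 (R 4.3.3), dose as a block, Benjamini-Hochberg adjustment over all tested genes and a threshold of 0.05. The labels pair T4 with T5 by dose only. A second fit added the interaction with log2 dose. Median centring, quantile normalization, pseudocounts, filters, no block and leaving out each pair were tried. Relative depth came from the spacing of values under 0.2 FPKM, and counts of fragments could not be rebuilt for every gene, so no count model was run. The fits were checked on simulated data drawn around the real means with the real scatter. Of genes changed by 0.3, 0.6 and 1, 56.7%, 91.0% and 100% were recovered. For a change with dose of 0.6, 1.2 and 2 the shares were 14.9%, 77.6% and 89.4%.

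The text names the 12 genes with the largest called difference in each direction and one sign at all 5 doses, leaving out small RNAs, pseudogenes and placeholders, up to 4 of each list, all cleavage and polyadenylation factors, and 5 genes each way for change with dose. Some list members are counted in their lists but not reported by name here. Other list members, the small RNAs and the genes that run against the dose trend were chosen after their values were seen. Members and lists were chosen with earlier results of these data known. Promoter sequences and gene lengths are from RefSeq, GRCh38.p14, matched by symbol. Reads of overlapping genes, paralogs and read-through entries may be shared between them.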

Additional observations from a re-analysis of the deposited data

How the results depend on the processing

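The 2807 higher and 641 lower calls became 1683 and 1832 with median centring, 1339 and 1064 with quantile normalization, and 1361 and 417 among genes of at least 5 FPKM. Without each pair of libraries in turn they ranged from 1647 to 2674 and from 294 to 756, with the fewest in the fit without the 2 µM pair. Pseudocounts of 0.1 and 5, no filter on low values, a filter over the 10 libraries only, a filter on zeros and a variance without a trend kept both counts within 1.5 times. No gene called as deposited was called in the opposite direction under any setting, scaling and single pairs left out included. Median centring could not turn a called gene, since its shift was below the smallest called difference toward T4. The fits without 1 pair share all their other pairs with the main fit, so the kept directions are no separate support. With no replicate block the dose range counts as scatter, and the fit made 0 calls in either direction, with a lowest adjusted p of 0.971, so that immediate early and G2/M calls were also 0 instead of 14 and 28. Leaving out single pairs gave 11 to 15 immediate early and 20 to 29 G2/M calls. The change with dose gave 2 calls with median centring and 0 in each of the other settings. Of the 199 called genes named, 21 lost the call with median centring, 40 with quantile normalization and 15 to 56 without single pairs, the most without 5 µM. Genes that were not called and whose sign turned were CDK1 (-0.060), CPSF3 (-0.053), CSTF2 (-0.0029), FIP1L1 (-0.0087), NUDT21 (-0.051) and RBBP6 (-0.041) with median centring, CLP1 (-0.021), CPSF3 (-0.045), FIP1L1 (-0.0041), RBBP6 (-0.087) and TOP2A (0.0087) with quantile normalization and PCF11 (7.4e-05) with pseudocount 5. Without single pairs the sign also turned for CDC25B (-0.065 to 0.024), CDK1 (-0.036 to 0.034), CPSF3 (-0.039 to 0.052), FIP1L1 (-0.0015 to 0.11), FOSL2 (-0.15 to 0.091), NUDT21 (-0.013 to 0.037), PCF11 (-0.034 to 0.037), RBBP6 (-0.030 to 0.078) and TOP2A (-0.088 to 0.014). The causes of these shifts were not tested. The depth behind each FPKM value is unknown.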
